A study of Rattus norvegicus with 9 samples.

Results

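The glucose genes described here are 9 members of the uptake and glycolysis machinery of primary rat cardiac myocytes: the glucose transporter genes Slc2a1 and Slc2a4, the hexokinase genes Hk1 and Hk2, the phosphofructokinase genes Pfkm and Pfkp, the pyruvate kinase gene Pkm, and the lactate dehydrogenase genes Ldha and Ldhb. They were taken by symbol from an expression table of 14636 genes, and each symbol matched 1 row. The cells came from Sprague Dawley rats aged 2 days and were freed with a heart dissociation kit, purified on a Percoll gradient and kept in DMEM with 15% fetal bovine serum. After 16 h they were transfected with siRNA, and RNA was collected 48 h later for poly-A sequencing on the BGISEQ-500 platform. Each of 3 groups held 3 libraries, from cells given siRNA to Llgl1 together with Llgl2 (Llgl1/2 siRNA), siRNA to Yap, or a universal negative control siRNA (control siRNA). Llgl1 and Llgl2 encode cell polarity proteins, and Yap1 encodes YAP, a coactivator that the Hippo kinases restrain. Each target received 2 siRNAs at 25 nM each, so with a pair of targets the total siRNA load of the Llgl1/2 cells could be higher, and load and target cannot be told apart. Whether replicates came from separate cultures is not given in the labels, so the p-values here rest on a spread between libraries that could be technical.

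As background, glucose enters the myocyte through SLC2A1 (GLUT1), which sits at the surface in the basal state, and SLC2A4 (GLUT4), which insulin and contraction bring to the surface. Hexokinase traps it as glucose phosphate, phosphofructokinase makes the committed step of glycolysis, pyruvate kinase yields pyruvate, and lactate dehydrogenase interconverts pyruvate and lactate. The fetal heart leans on glycolysis and the adult heart on fatty acids, and several of these steps have an early or ubiquitous form (Slc2a1, Hk1, Pfkp, Ldha) and a form typical of adult heart or muscle (Slc2a4, Hk2, Pfkm, Ldhb).

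The deposited values were FPKM, fragments scaled for transcript length and library size, so levels of different genes can be set side by side per length. Library sums lay between 572884 and 620119 FPKM, and read totals were not used here. From the steps between genes with few reads, relative depth was between 1.00 and 1.12 times that of Llgl1/2 library 1, so the groups were read to a like depth. The targeted genes moved as labelled: Llgl1 averaged 4.72 ± 0.0608 FPKM after Llgl1/2 siRNA and 12.1 ± 0.225 in controls, Llgl2 averaged 7.15 ± 0.576 and 13.6 ± 1.46, and Yap1 averaged 5.44 ± 0.879 after Yap siRNA and 59.7 ± 4.03 in controls (SD, n = 3). After Yap siRNA, Llgl1 and Llgl2 were also below the controls, at 8.84 ± 1.48 and 9.60 ± 2.10 FPKM (limma, adjusted p = 0.0064 and 0.0086). Yap1 was at 52.35 ± 5.28 FPKM after Llgl1/2 siRNA (adjusted p = 0.18). Myocyte markers were abundant in every library, and those of other cells were present too. The 8 myocyte markers summed to 17310 to 18440 FPKM after Llgl1/2 siRNA, 24350 to 27740 after Yap siRNA and 14050 to 16680 in controls, mostly from Tnnt2, Myl2, Myh6 and Tnni3. Of these 8, 5 rose and none fell after Llgl1/2 siRNA (median log2 change 0.476). After Yap siRNA 6 rose and Actn2 fell (median 0.63). The 8 endothelial markers summed to 262.3 to 275.1, 380.7 to 443.5 and 525.9 to 624.1 FPKM in the same groups, where 7 fell after Llgl1/2 siRNA, and 1 rose and 4 fell after Yap siRNA. The 6 smooth muscle and pericyte markers summed to 1601 to 1970, 694.2 to 795.5 and 2981 to 3099 FPKM, a sum made up mostly of Acta2 and Tagln, which fell after both knockdowns (the Tagln call after Llgl1/2 siRNA was lost in 2 alternatives). By count 2 of these 6 rose and 2 fell after Llgl1/2 siRNA (median log2 change 0.27), and 3 rose and 3 fell after Yap siRNA (median 0.06). The 8 fibroblast markers summed to 302.9 to 387.7, 369.1 to 461.6 and 331.1 to 482.3 FPKM in those groups, mostly from collagen genes. Of these 8, 1 rose and 3 fell after Llgl1/2 siRNA (median -0.345), and 3 rose and none fell after Yap siRNA (median 0.14). The 6 leukocyte markers summed to 47.4 to 60.02, 69.9 to 96.8 and 70.4 to 90.4 FPKM, with Cd68 the most abundant on average in each group. None of these 6 rose and 3 fell after Llgl1/2 siRNA (median -0.40). After Yap siRNA Cd68 rose and 3 others fell (median -0.34). None of these lists held a marker at 0 in all 9 libraries. Markers counted as risen or fallen had an adjusted p under 0.05 (limma). Of all genes tested, 22.1% were higher and 18.1% lower by that measure after Llgl1/2 siRNA, and 20.5% and 27.5% after Yap siRNA. The part of these markers in the results on glucose genes was not tested, and in such bulk samples fewer cells of a type and less RNA per cell cannot be told apart.

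Against the controls, 6 of the 9 genes passed limma's test after Llgl1/2 siRNA (adjusted p under 0.05 over all 10789 genes tested), 3 higher and 3 lower, where the background was 40.2% of all genes called (22.1% higher and 18.1% lower). After Yap siRNA 4 of 9 passed, 3 higher and 1 lower, against a background of 48.0% (20.5% higher and 27.5% lower). The libraries of the groups did not overlap for 7 genes after Llgl1/2 siRNA, 3 higher and 4 lower, where 54.1% of all genes did not (30.1% higher and 24.0% lower). After Yap siRNA they did not overlap for 7 genes, again 3 higher and 4 lower, where 54.9% of all genes did not (23.3% higher and 31.6% lower). With median-ratio scaling the calls over all genes were split more evenly, 2113 higher and 2160 lower after Llgl1/2 siRNA (2380 and 1958 as deposited) and 2570 higher and 2558 lower after Yap siRNA (2217 and 2964 as deposited). With 9 genes against such backgrounds, nothing is read from the counts themselves. The members' median log2 change was -0.12 after Llgl1/2 siRNA and 0.09 after Yap siRNA, beside 0.03 and -0.065 over all genes tested. The account rests on each gene and on the balance within each pair of isoenzymes. Hk2 was lower after both knockdowns, Ldhb was lower after Llgl1/2 siRNA and higher after Yap siRNA, Pfkm was higher mainly after Yap siRNA and Pfkp after Llgl1/2 siRNA, and Pkm was lower after Llgl1/2 siRNA. The other comparison asked where the 2 knockdowns differed from each other, and it is given after the single genes.

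**Figure D1:**
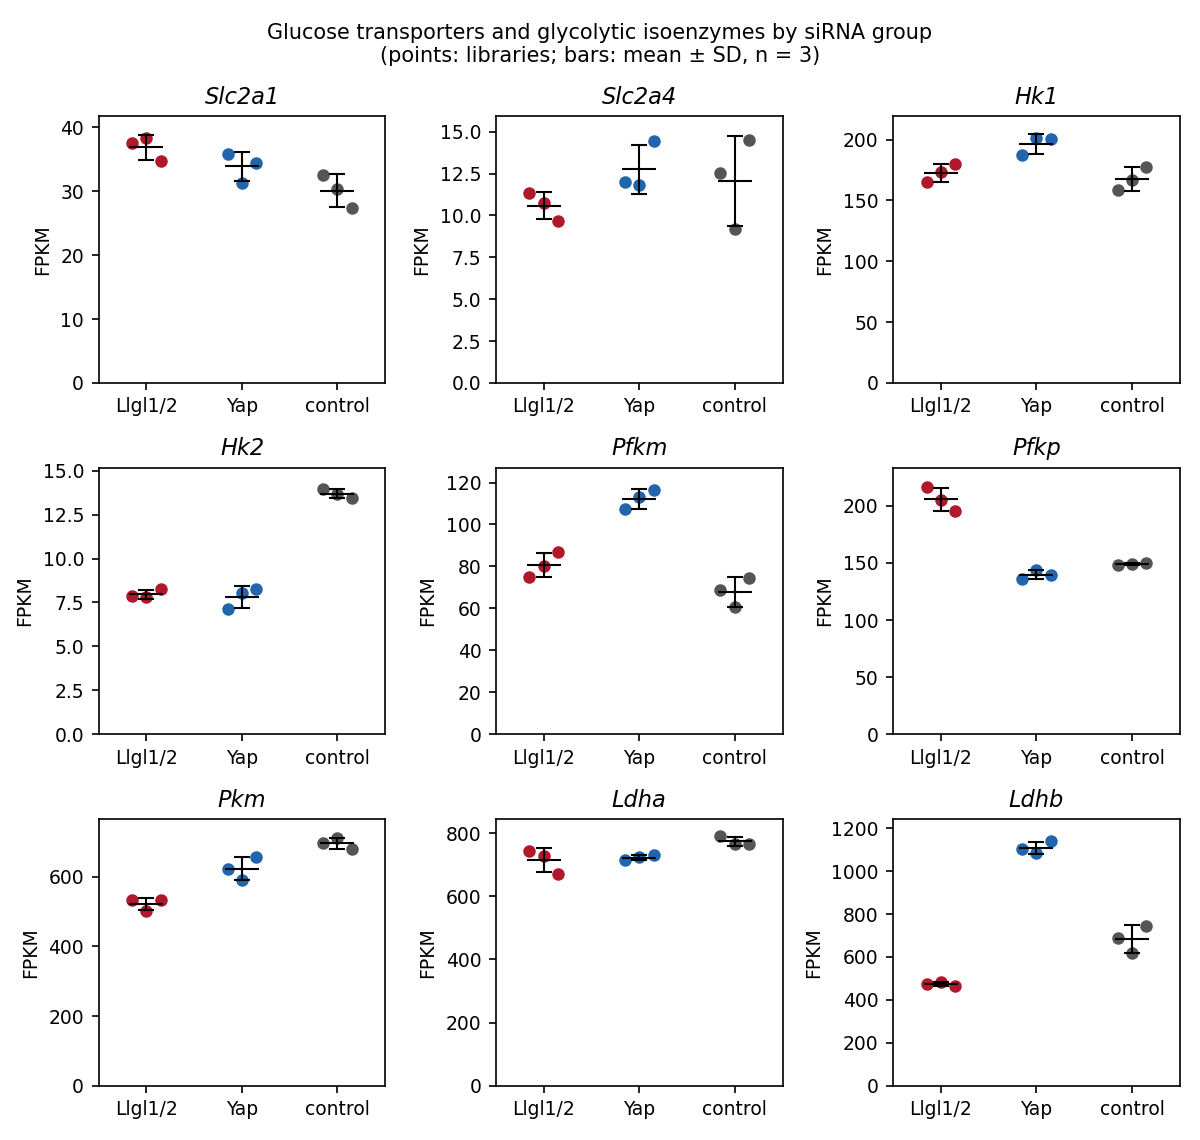
FPKM (y axes, from 0) of each of the 9 genes in each library, by siRNA group (x axes); points are libraries and bars the mean ± SD of 3. The Hk2 points of both knockdowns sit at 7.12 to 8.28, below every control point, and the Ldhb points fall into 3 separate levels.

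The levels per length spanned a wide range. In control libraries the mean order was Ldha (773.9 FPKM), Pkm (695.8), Ldhb (683.2), Hk1 (167.6), Pfkp (148.9), Pfkm (67.9), Slc2a1 (30.1), Hk2 (13.7) and Slc2a4 (12.1). Of the neighbours in that order, Pkm and Ldhb overlapped between libraries, and so did Hk2 and Slc2a4. After Llgl1/2 siRNA Pfkp (205.6) stood above Hk1 (172.6), and after Yap siRNA Ldhb (1109) led the list above Ldha (722.0). After both knockdowns Hk2, at 7.97 and 7.81 FPKM, stood below Slc2a4, at 10.6 and 12.8, with no overlap between libraries of the same group. The non-insulin-dependent transporter, the ubiquitous hexokinase and the non-muscle phosphofructokinase were thus the more abundant form of their pair in all 9 libraries.

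Slc2a1, the basal glucose transporter gene, was at 37.6, 38.4 and 34.7 FPKM after Llgl1/2 siRNA and 35.9, 31.3 and 34.5 after Yap siRNA, against 32.5, 30.3 and 27.4 in controls. All Llgl1/2 libraries were above all control libraries, while the Yap libraries overlapped with the controls. It rose after Llgl1/2 siRNA, by 0.29 ± 0.08 on the log2(FPKM + 1) scale (SE, limma, adjusted p = 0.015), a call lost without Llgl1/2 library 2 (adjusted p = 0.061) or control library 3 (0.063). After Yap siRNA its log2 change was 0.17 ± 0.08 (limma, adjusted p = 0.12), which passed with median-ratio scaling (0.032) or quantile normalization (0.046).

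Slc2a4, the insulin-responsive transporter gene, was at 11.3, 10.7 and 9.70 FPKM after Llgl1/2 siRNA and 12.0, 11.8 and 14.5 after Yap siRNA, against 12.5, 9.19 and 14.5 in controls. Both knockdowns overlapped with the controls, whose own libraries were the most spread of any group. Its log2 changes were -0.155 ± 0.14 after Llgl1/2 siRNA (limma, adjusted p = 0.39) and 0.09 ± 0.14 after Yap siRNA (adjusted p = 0.61), so no change was detectable against this spread.

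Among the hexokinases, Hk1, the form of most tissues, was at 165, 173 and 180 FPKM after Llgl1/2 siRNA and 187, 201 and 201 after Yap siRNA, against 158, 167 and 178 in controls. The Yap libraries were all above the controls and the Llgl1/2 libraries overlapped with them. Hk1 rose after Yap siRNA by 0.23 ± 0.07 on the log2 scale (limma, adjusted p = 0.015), and the call was lost with quantile normalization (adjusted p = 0.068) or without control library 1 (0.078). After Llgl1/2 siRNA its change was 0.04 ± 0.07 (limma, adjusted p = 0.65).

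Hk2, the form of insulin-sensitive muscle and heart, was at 7.86, 7.80 and 8.25 FPKM after Llgl1/2 siRNA and 7.12, 8.03 and 8.28 after Yap siRNA, against 14.0, 13.7 and 13.4 in controls. Every knockdown library was below every control library, and the 2 knockdowns overlapped with each other. Hk2 fell by 0.71 ± 0.09 on the log2 scale after Llgl1/2 siRNA (limma, adjusted p = 4.7e-05), with a ratio of mean FPKM of 0.582. After Yap siRNA it fell by 0.74 ± 0.09 (adjusted p = 2.0e-05), with a ratio of 0.570. Both comparisons share the same 3 control libraries.

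Pfkm, the muscle phosphofructokinase gene, was at 75.0, 80.2 and 86.7 FPKM after Llgl1/2 siRNA and 107, 113 and 117 after Yap siRNA, against 68.6, 60.5 and 74.5 in controls. The groups formed 3 steps with no overlap, although the lowest Llgl1/2 library lay just above the highest control. Pfkm rose after Yap siRNA by 0.72 ± 0.08 on the log2 scale (limma, adjusted p = 1.3e-05), with a ratio of mean FPKM of 1.65. After Llgl1/2 siRNA it rose by 0.25 ± 0.08 (adjusted p = 0.031), a call lost with median-ratio scaling (adjusted p = 0.06). Leaving out a library also ended it for library 2 (0.073) or 3 (0.14) of the Llgl1/2 group and for control library 1 (0.063) or 2 (0.16).

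Pfkp, the platelet-type phosphofructokinase gene, widely expressed in other tissues, was at 216, 205 and 196 FPKM after Llgl1/2 siRNA and 136, 144 and 139 after Yap siRNA, against 148, 149 and 149.5 in controls. The Llgl1/2 libraries were all above the controls, and the Yap libraries all slightly below them. Pfkp rose after Llgl1/2 siRNA by 0.46 ± 0.065 on the log2 scale (limma, adjusted p = 9.9e-05), with a ratio of mean FPKM of 1.38. Its change after Yap siRNA was -0.09 ± 0.065 (adjusted p = 0.27).

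Pkm, the pyruvate kinase gene of muscle and most other tissues, was at 533, 502 and 532 FPKM after Llgl1/2 siRNA and 623, 592 and 656 after Yap siRNA, against 697, 711 and 679 in controls. All knockdown libraries were below all controls. Pkm fell after Llgl1/2 siRNA by 0.41 ± 0.07 on the log2 scale (limma, adjusted p = 0.00038), with a ratio of mean FPKM of 0.751. After Yap siRNA the change was -0.16 ± 0.07 (adjusted p = 0.071), which passed with quantile normalization (0.0061), with the replicate number as a block (0.049) or without Yap library 3 (0.036). The single Pkm row does not separate the M1 and M2 splice forms.

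Ldha, the lactate dehydrogenase subunit gene that predominates in skeletal muscle, was at 743, 728 and 671 FPKM after Llgl1/2 siRNA and 714, 723 and 729 after Yap siRNA, against 790.4, 767 and 765 in controls. All 6 knockdown libraries were below the 3 controls, by little. The log2 changes were -0.12 ± 0.07 after Llgl1/2 siRNA (limma, adjusted p = 0.18) and -0.10 ± 0.07 after Yap siRNA (adjusted p = 0.24), and of the alternatives run for Yap siRNA only quantile normalization passed (0.0055).

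Ldhb, the subunit gene that predominates in heart, was at 474.5, 481 and 463 FPKM after Llgl1/2 siRNA and 1104, 1084 and 1138 after Yap siRNA, against 687, 618 and 745 in controls. The 3 groups did not overlap, with the Llgl1/2 libraries lowest and the Yap libraries highest. Ldhb fell after Llgl1/2 siRNA by 0.53 ± 0.08 on the log2 scale (limma, adjusted p = 0.00014), a ratio of mean FPKM of 0.692. It rose after Yap siRNA by 0.70 ± 0.08 (adjusted p = 6.9e-06), a ratio of 1.62. The fibroblast markers Dcn and Lum had the same order of groups, Dcn at 7.46 ± 0.245 FPKM after Llgl1/2 siRNA and 33.3 ± 4.46 after Yap siRNA, against 15.9 ± 2.91 in controls. Lum was at 0.817 ± 0.0808 and 5.26 ± 0.227 FPKM after Llgl1/2 and Yap siRNA, against 3.01 ± 0.516 in controls. Both passed in both comparisons. Of the other fibroblast markers listed, Thy1 rose after both knockdowns, by 0.48 ± 0.12 and 0.73 ± 0.12. Pdgfra fell after Llgl1/2 siRNA and did not pass after Yap siRNA. Col1a1, Col1a2, Col3a1 and Tcf21 passed in neither comparison. The part of fibroblast markers in the Ldhb result was not tested.

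**Figure D2:**
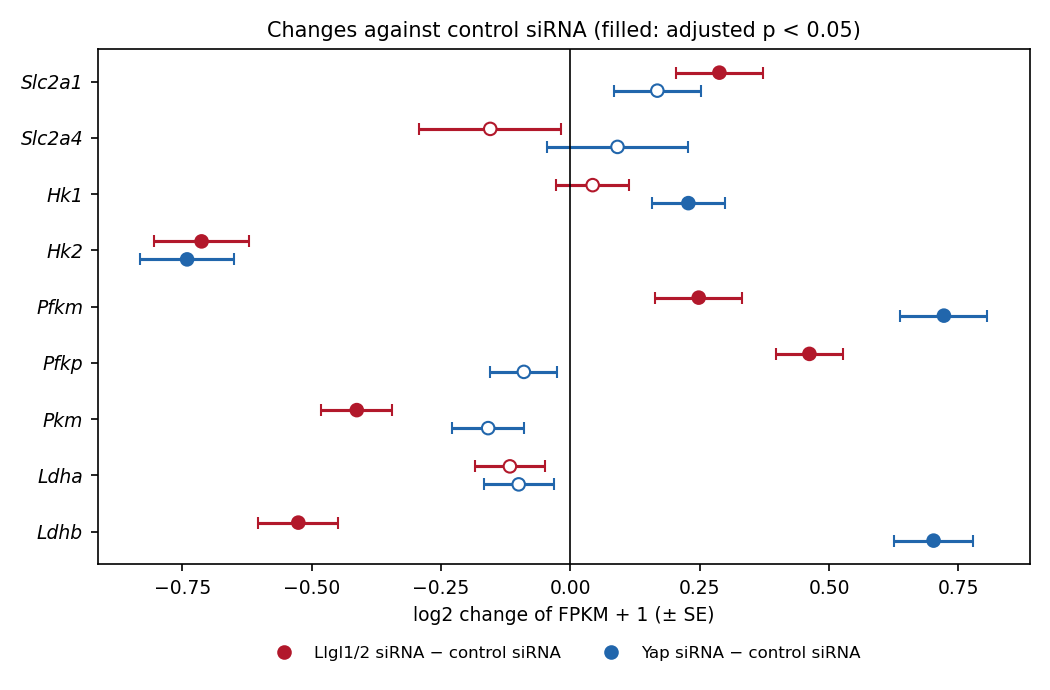
Log2 change of FPKM + 1 with its standard error (x axis) for each gene (y axis), Llgl1/2 siRNA minus control siRNA above and Yap siRNA minus control siRNA below; filled points passed limma's test. Hk2 lies left of 0 for both, at -0.71 and -0.74, and Ldhb on opposite sides, at -0.53 and 0.70.

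A ratio of 2 genes within a library does not depend on how that library was scaled. The form typical of adult heart or muscle was therefore divided by its partner in 4 pairs. For lactate dehydrogenase this was Ldhb, predominant in heart, over Ldha, predominant in skeletal muscle. The ratios were compared between the 3 groups with an exact permutation test over all 1680 assignments of the 9 libraries, adjusted over the 4 ratios. With 3 libraries against 3 the test cannot give an exact p below 0.10, so the pairs of groups are described by their difference and overlap. The ratios of Hk2 over Hk1, Pfkm over Pfkp and Ldhb over Ldha differed between groups, and that of Slc2a4 over Slc2a1 did not pass with all 9 libraries.

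The ratio of Slc2a4 over Slc2a1 was 0.302, 0.280 and 0.279 after Llgl1/2 siRNA and 0.335, 0.378 and 0.420 after Yap siRNA, against 0.385, 0.303 and 0.529 in controls. The Llgl1/2 libraries were the lowest and lay just below the lowest control, and the Yap libraries fell within the control range. The exact test over 3 groups gave p = 0.14 (adjusted p = 0.14). Without control library 2 the adjusted exact p was 0.018, so whether this ratio passes rests on that library.

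The ratio of Hk2 over Hk1 was 0.0477, 0.0450 and 0.0459 after Llgl1/2 siRNA and 0.0381, 0.0399 and 0.0412 after Yap siRNA, against 0.0882, 0.0822 and 0.0756 in controls. Hk2 thus made up 4.31% to 4.55% of the FPKM of this pair after Llgl1/2 siRNA, 3.67% to 3.96% after Yap siRNA and 7.03% to 8.11% in controls. The mean log2 ratio differed from control by -0.825 after Llgl1/2 siRNA and by -1.04 after Yap siRNA, with no overlap in either case. Here the exact p was 0.0036 (adjusted p = 0.0071), the smallest that the test can give.

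The ratio of Pfkm over Pfkp was 0.347, 0.392 and 0.443 after Llgl1/2 siRNA and 0.788, 0.786 and 0.837 after Yap siRNA, against 0.464, 0.405 and 0.498 in controls. Yap libraries were all above the controls, with a mean log2 ratio higher by 0.82, and the Llgl1/2 libraries overlapped with the controls, at a difference of -0.21 (exact p = 0.20). The exact test over 3 groups gave p = 0.0071 (adjusted p = 0.0095). The sum of both genes was higher than in controls after each knockdown, at 282.5 to 291.1 FPKM after Llgl1/2 siRNA and 243.2 to 257.5 after Yap siRNA, against 209.9 to 224.0 in controls. Counting the liver-type gene Pfkl as well, Pfkm held 22.9% to 27.3% of phosphofructokinase FPKM after Llgl1/2 siRNA, 37.4% to 38.9% after Yap siRNA and 23.0% to 27.4% in controls. The Pfkl share was 10.7% to 11% after Llgl1/2 siRNA, 12.3% to 15.1% after Yap siRNA and 17.8% to 20.1% in controls.

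The ratio of Ldhb over Ldha was 0.639, 0.661 and 0.690 after Llgl1/2 siRNA and 1.55, 1.5 and 1.56 after Yap siRNA, against 0.869, 0.806 and 0.975 in controls. The mean log2 ratio differed from control by -0.41 after Llgl1/2 siRNA and by 0.80 after Yap siRNA, and no groups overlapped. The exact test over 3 groups gave p = 0.0036 (adjusted p = 0.0071). Ldhb exceeded Ldha in the 3 Yap libraries and in none of the other 6. The summed FPKM of both subunit genes was 1135 to 1217 after Llgl1/2 siRNA, 1808 to 1867 after Yap siRNA and 1384 to 1510 in controls.

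**Figure D3:**
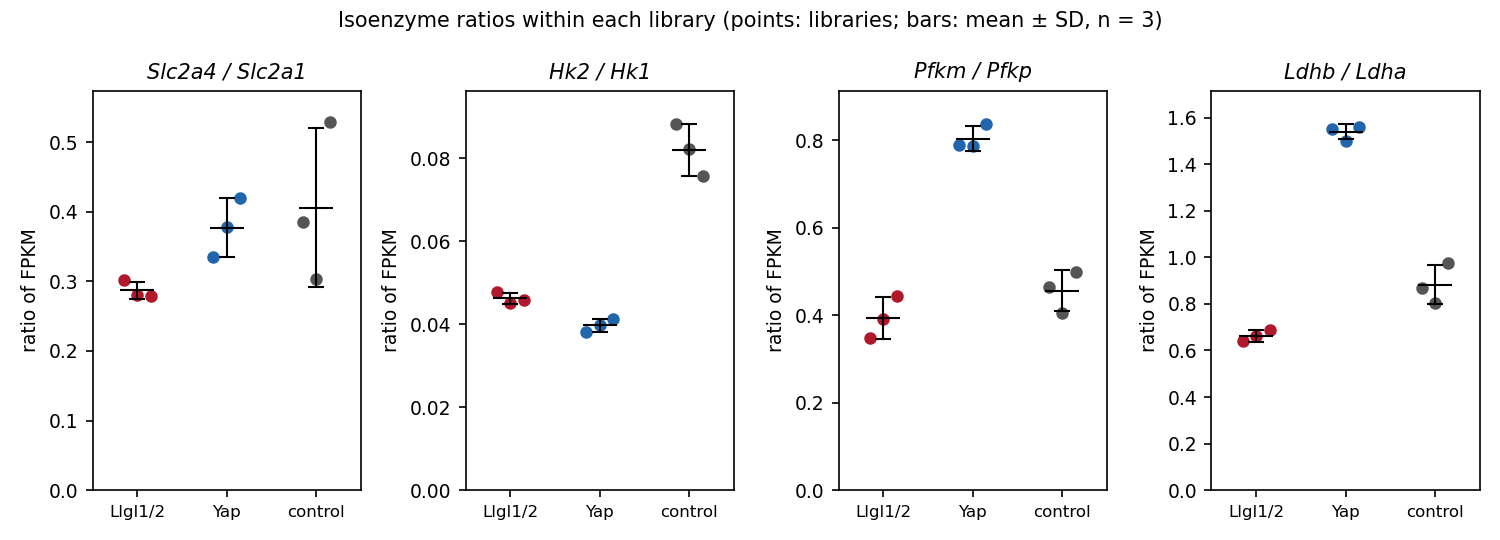
Ratio of FPKM within each library (y axes, from 0) for 4 pairs of isoenzymes or transporters, by siRNA group (x axes); points are libraries and bars the mean ± SD of 3. The Yap libraries lie above both other groups for Pfkm over Pfkp and for Ldhb over Ldha, and both knockdowns lie below the controls for Hk2 over Hk1.

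Upstream sequences are shown for Hk2, which fell after both knockdowns, and for the phosphofructokinase and lactate dehydrogenase pairs, whose ratios separated the Yap libraries from the other groups. Each is the stretch of 250 bases before the RefSeq start of the gene on build GRCr8, 5′ to 3′ on the gene's strand, and 8 of the 9 genes had such an entry (Slc2a4 had none). The windows were searched on both strands for GGAATG, the core of the site of TEAD, the DNA-binding partner of YAP. They were also searched for ACGTG, a form of the core bound by hypoxia-inducible factors, which the E-box CACGTG contains. Other forms of the hypoxia-inducible factor core, such as GCGTG, were not searched for. Capitals mark matches to ACGTG or CACGTG. The Hk2 window is chr4:116841276-116841525 (minus strand), that of Pfkm chr7:131113849-131114098 (plus strand), that of Pfkp chr17:68639563-68639812 (plus strand), that of Ldhb chr4:177177409-177177658 (minus strand) and that of Ldha chr1:106507842-106508091 (plus strand).
Hk2: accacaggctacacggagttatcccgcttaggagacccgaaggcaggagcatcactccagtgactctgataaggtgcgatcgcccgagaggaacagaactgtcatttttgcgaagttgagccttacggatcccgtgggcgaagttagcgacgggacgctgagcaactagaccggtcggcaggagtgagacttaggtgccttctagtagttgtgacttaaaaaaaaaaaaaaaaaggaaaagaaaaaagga
Pfkm: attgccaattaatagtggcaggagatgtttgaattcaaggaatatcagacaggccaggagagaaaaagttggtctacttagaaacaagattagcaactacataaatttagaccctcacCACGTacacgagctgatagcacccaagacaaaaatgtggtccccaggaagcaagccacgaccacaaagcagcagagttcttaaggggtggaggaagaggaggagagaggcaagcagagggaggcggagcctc
Pfkp: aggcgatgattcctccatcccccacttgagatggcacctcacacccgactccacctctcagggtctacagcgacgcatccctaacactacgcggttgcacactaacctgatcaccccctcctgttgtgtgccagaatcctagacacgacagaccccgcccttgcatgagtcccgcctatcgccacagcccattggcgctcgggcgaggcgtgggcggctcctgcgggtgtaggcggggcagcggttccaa
Ldhb: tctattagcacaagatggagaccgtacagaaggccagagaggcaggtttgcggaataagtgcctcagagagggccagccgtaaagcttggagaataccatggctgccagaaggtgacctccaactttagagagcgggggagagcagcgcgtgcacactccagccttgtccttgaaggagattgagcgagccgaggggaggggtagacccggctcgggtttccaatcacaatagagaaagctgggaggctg
Ldha: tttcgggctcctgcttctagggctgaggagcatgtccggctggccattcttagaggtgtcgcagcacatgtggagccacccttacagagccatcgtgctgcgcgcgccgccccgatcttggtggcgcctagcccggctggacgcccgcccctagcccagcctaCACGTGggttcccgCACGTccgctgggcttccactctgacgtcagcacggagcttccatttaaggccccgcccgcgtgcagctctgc
No window of the 8 genes held GGAATG, which 12.1% of all 33469 such windows hold. ACGTG was found for 4 of the 8 genes, Slc2a1, Hk1, Pfkm and Ldha, against 16.6% of all windows, and Hk1 has 2 annotated starts of which 1 had a match. In Ldha it occurred at 2 places, one of them the E-box, which 5.59% of all windows hold. A match is a string of letters and not evidence of binding, and its absence covers only this window and these letters.

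Set directly against Yap siRNA, Llgl1/2 siRNA gave 5 of 9 genes past limma's threshold, 1 higher and 4 lower, against a background of 47.0% of all genes (28.0% higher and 19.0% lower). The libraries did not overlap for 6 genes, 1 higher and 5 lower, where 54.4% of all genes did not (32.9% higher and 21.4% lower). The background split was 3024 higher and 2046 lower, and 2320 higher and 2596 lower with median-ratio scaling. Ldhb showed the largest difference of the 9, at -1.23 ± 0.08 on the log2 scale (limma, adjusted p = 6.2e-08), with all Llgl1/2 libraries below all Yap libraries. Pfkm was lower, at -0.47 ± 0.08 (adjusted p = 0.00046), and so was Pkm, at -0.25 ± 0.07 (adjusted p = 0.0079), while Pfkp was higher, at 0.55 ± 0.065 (adjusted p = 1.7e-05). Hk1 was lower, at -0.185 ± 0.07 (adjusted p = 0.043), a call that was lost in 9 of the 15 alternatives. The 2 knockdowns were not distinguished for Hk2, at 0.03 ± 0.09 (adjusted p = 0.82), for Ldha, at -0.02 ± 0.07 (adjusted p = 0.85), or for Slc2a1, at 0.12 ± 0.08 (adjusted p = 0.26). For Slc2a4 the libraries did not overlap, with Llgl1/2 libraries lower, but the difference of -0.25 ± 0.14 did not pass (adjusted p = 0.16).

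The remaining genes of the pathway were taken from lists by role. Counts in all these lists stand beside 22.1% of all genes called higher and 18.1% lower after Llgl1/2 siRNA. After Yap siRNA the shares were 20.5% higher and 27.5% lower. As with the 9 members, nothing is read from the counts themselves. Of 12 tested enzymes of the other glycolytic steps, 3 rose and 1 fell after Llgl1/2 siRNA (median log2 change -0.05), and 4 rose and 3 fell after Yap siRNA (median 0.03). Aldoc, an aldolase known from brain, rose by 0.55 ± 0.09 after Llgl1/2 siRNA (limma, adjusted p = 0.00033) and by 1.34 ± 0.09 after Yap siRNA (adjusted p = 8.5e-08), at 18.0 ± 1.34, 32.0 ± 2.68 and 12.0 ± 0.673 FPKM in the Llgl1/2, Yap and control libraries. Eno3, the muscle enolase gene, rose in both, to 16.4 ± 1.24 and 27.0 ± 2.95 FPKM, against 11.8 ± 0.762 in controls (adjusted p = 0.0027 and 8.4e-07). Eno1, the enolase of most tissues, fell to 723 ± 34.0 and 547 ± 59.5 FPKM, against 886 ± 27.2 in controls (adjusted p = 0.013 and 1.5e-05), a call lost for Llgl1/2 siRNA without Llgl1/2 library 2 (0.062) or control library 1 (0.053). Pklr, the liver and red cell pyruvate kinase gene, rose after Yap siRNA but stayed low, at 2.13 ± 0.280 FPKM against 0.483 ± 0.153 in controls (adjusted p = 4.0e-05). The other genes behind these counts, named after their values were seen, were the muscle mutase gene Pgam2, higher in both (0.58 ± 0.11 and 0.49 ± 0.11), and Pgk1 and Pgam1, lower after Yap siRNA (-0.35 ± 0.08 and -0.36 ± 0.07). Gapdh, Aldoa, Tpi1, Gpi and Eno2 passed in neither comparison with the control. Several genes of the pathway, among them Ldha, Gapdh and Pgam1, have processed pseudogene copies in rodents, and how shared reads were counted is not given in the sources used here.

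Around the phosphofructokinase step, Pfkl fell by 0.54 ± 0.08 after Llgl1/2 siRNA (limma, adjusted p = 0.00021) and by 0.32 ± 0.08 after Yap siRNA (adjusted p = 0.0057). Hk3, a hexokinase of leukocytes, fell by 0.85 ± 0.17 after Llgl1/2 siRNA (adjusted p = 0.0016). After Yap siRNA its change was -0.48 ± 0.17 (adjusted p = 0.036), a call lost in 6 alternatives, and its mean level was 1.44, 2.19 and 3.42 FPKM in the Llgl1/2, Yap and control libraries. These were the 2 tested genes of a list of 4. Of 5 genes for the enzymes that make or remove fructose 2,6-bisphosphate, an allosteric activator of phosphofructokinase, 1 rose and 2 fell after Llgl1/2 siRNA (median -0.17), and 1 fell after Yap siRNA (median -0.01). Pfkfb3, the inducible kinase form, was at 5.45, 5.96 and 6.32 FPKM after Llgl1/2 siRNA and 6.23, 6.34 and 5.60 after Yap siRNA, against 12.6, 14.3 and 13.4 in controls. Every knockdown library was below every control, and the falls were 1.07 ± 0.10 (adjusted p = 3.7e-06) and 1.035 ± 0.10 (adjusted p = 2.2e-06) on the log2 scale. Pfkfb1 fell after Llgl1/2 siRNA (-0.67 ± 0.17, adjusted p = 0.0064), and Pfkfb4 was at 0.41 ± 0.15 (adjusted p = 0.049), a call that held in 2 of 15 alternatives.

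Of the 6 other glucose transporter genes listed, 4 were tested (median log2 change 0.27 after Llgl1/2 siRNA and -0.18 after Yap siRNA), and all had lower FPKM than Slc2a1. Slc2a12, expressed in heart and muscle, rose to 2.64 ± 0.265 and 2.89 ± 0.316 FPKM after Llgl1/2 and Yap siRNA, against 1.66 ± 0.233 in controls (limma, adjusted p = 0.013 and 0.0034), the first being lost without Llgl1/2 library 1 (0.050) or control library 1 (0.064). Slc2a3, best known from neurons, fell after Yap siRNA, by 0.43 ± 0.13 (adjusted p = 0.014), and the call was lost without Yap library 2 (0.061) or control library 2 (0.065). The 3 tested genes of lactate transport had a median log2 change of 0.17 after Llgl1/2 siRNA, where 1 rose, and -0.29 after Yap siRNA, where 1 rose and 2 fell. Slc16a1, encoding the monocarboxylate transporter MCT1, was at 77.5, 79.8 and 74.5 FPKM after Llgl1/2 siRNA and 58.2, 58.2 and 65.4 after Yap siRNA, against 38.0, 38.0 and 40.5 in controls. No groups overlapped, and it rose by 0.97 ± 0.07 (adjusted p = 6.5e-07) and 0.63 ± 0.07 (adjusted p = 1.1e-05). Slc16a3, which encodes the lactate exporter MCT4, fell after Yap siRNA by 0.61 ± 0.08 (adjusted p = 2.2e-05) and was at -0.19 ± 0.08 after Llgl1/2 siRNA (adjusted p = 0.055). Their partner Bsg fell after Yap siRNA by 0.29 ± 0.09 (adjusted p = 0.012), lost without control library 3 (0.053).

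Of 13 genes that bring pyruvate into mitochondria and control its oxidation, 8 rose and 1 fell after Llgl1/2 siRNA (median log2 change 0.37), and 6 rose and 2 fell after Yap siRNA (median 0.05). Over all genes 22.1% rose and 18.1% fell after Llgl1/2 siRNA, and 20.5% and 27.5% after Yap siRNA. Mpc2, a subunit of the mitochondrial pyruvate carrier, rose to 186 ± 8.05 and 199.5 ± 15.9 FPKM after Llgl1/2 and Yap siRNA, against 117.5 ± 9.16 in controls (limma, adjusted p = 2.9e-05 and 5.0e-06). Pdhb, of the pyruvate dehydrogenase core, rose by 0.61 ± 0.07 after Llgl1/2 siRNA (adjusted p = 2.3e-05) and 0.24 ± 0.07 after Yap siRNA (adjusted p = 0.014, and 0.066 without control library 2). Pdha1, of the same enzyme, fell after Yap siRNA by 0.66 ± 0.07 (adjusted p = 6.9e-06) and was at 0.10 ± 0.07 after Llgl1/2 siRNA (adjusted p = 0.27). Pdk2, an inhibitory kinase of that complex, was at 36.8, 38.3 and 42.5 FPKM after Llgl1/2 siRNA and 82.9, 81.2 and 92.1 after Yap siRNA, against 50.3, 48.2 and 62.6 in controls. It fell by 0.44 ± 0.10 after Llgl1/2 siRNA (adjusted p = 0.0028) and rose by 0.67 ± 0.10 after Yap siRNA (adjusted p = 8.5e-05), with no overlap between groups. That order was also seen for Dcn and Lum but not for all fibroblast markers, whose part was not tested. The other kinase genes of the list, named after their values were seen, were Pdk1, Pdk3 and Pdk4. After Llgl1/2 siRNA all rose, by 0.21 ± 0.08, 0.49 ± 0.08 and 0.41 ± 0.125 (limma, adjusted p = 0.045, 0.00033 and 0.019). After Yap siRNA Pdk1 and Pdk4 rose, by 0.35 ± 0.08 and 0.67 ± 0.125 (adjusted p = 0.0021 and 0.00058). Pdk3 fell there (-0.37 ± 0.08, adjusted p = 0.0017).

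**Figure D4:**
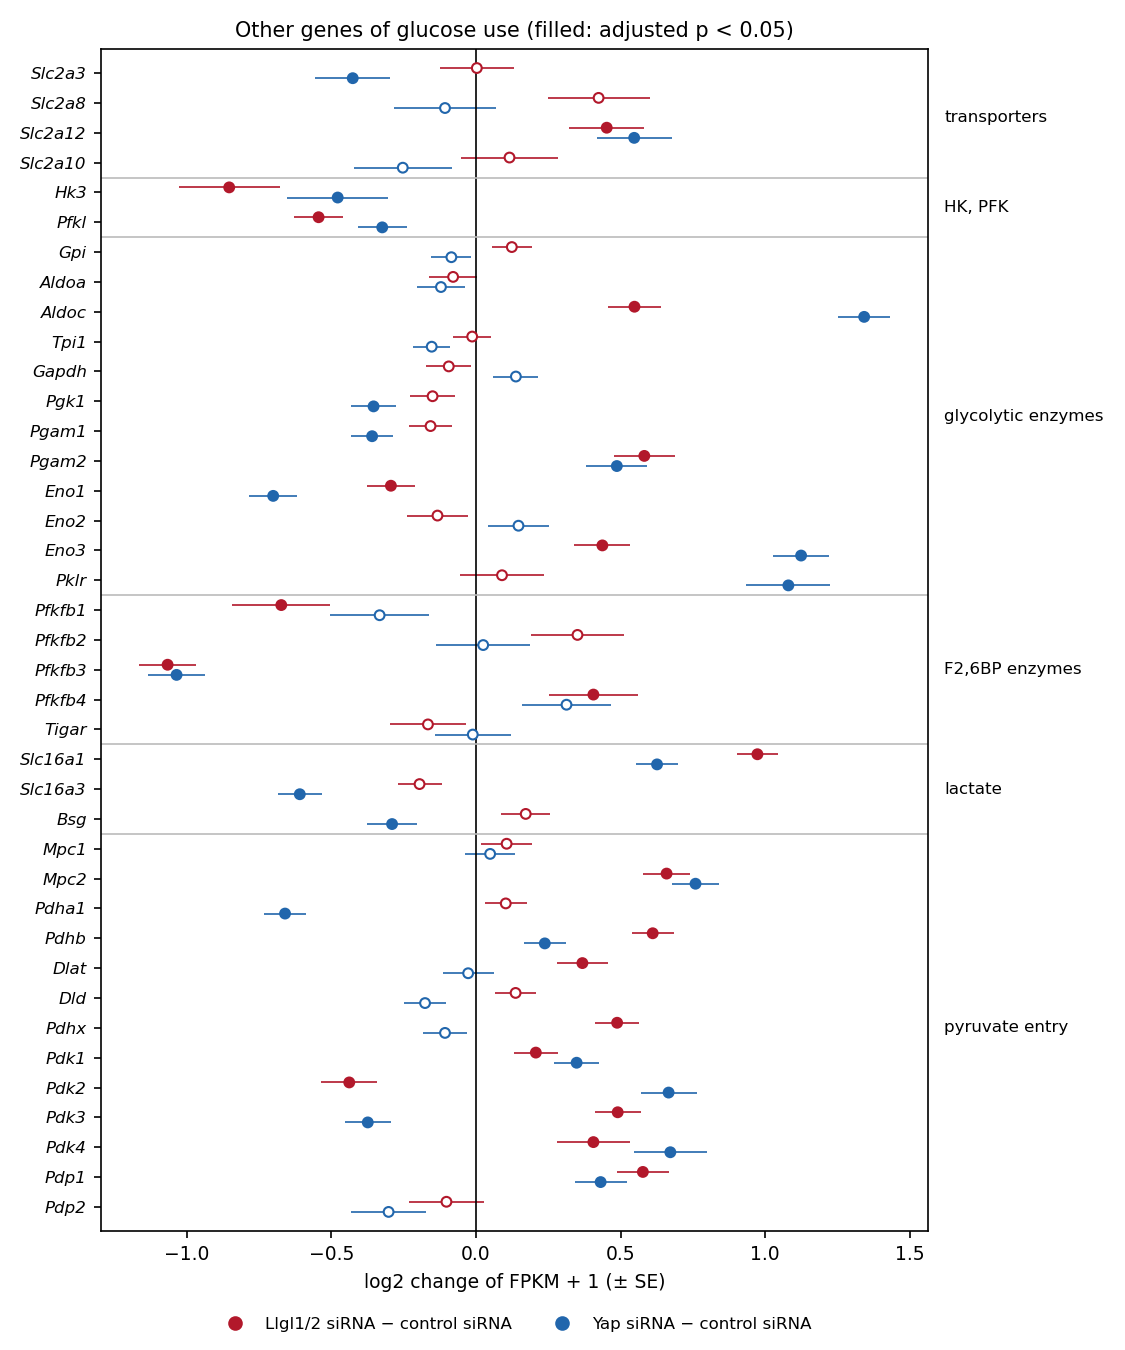
Log2 change of FPKM + 1 with its standard error (x axis) for the tested genes of 6 lists around the 9 genes (y axis, lists separated by lines), Llgl1/2 siRNA minus control siRNA in red and Yap siRNA minus control siRNA in blue; filled points passed limma's test. Pfkfb3 lies near -1 for both knockdowns, and Aldoc and Eno3 lie farthest right for Yap siRNA among the glycolytic enzymes, at 1.34 and 1.12.

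The genes closest in pattern to the members that changed by at least 0.5 on the log2 scale were found by the root mean square difference of centred log2(FPKM + 1) values over the 9 libraries, among genes with a mean of at least 10 FPKM. For Hk2 these were Gpc4, a glypican gene, at 0.06 and Scd2, a stearoyl-CoA desaturase gene, at 0.08. For Pfkm they were Trim63, the muscle ubiquitin ligase gene, and Ict1, both at 0.07. For Ldhb they were Atf5, a transcription factor gene, at 0.09 and Calr, which encodes the chaperone calreticulin, at 0.10. Atf5 averaged 63.0 ± 2.86 FPKM after Llgl1/2 siRNA and 146 ± 5.28 after Yap siRNA, against 82.2 ± 5.82 in controls. Its order of groups is that of Ldhb because it was chosen for a like pattern. Gpc4 averaged 21.9 ± 0.507 and 20.9 ± 1.23 FPKM after Llgl1/2 and Yap siRNA, against 38.3 ± 1.92 in controls.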

How the data were processed

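The authors deposited FPKM values per gene and library, rounded to 2 decimals; per the submitters' processing notes the tools include Bowtie2 and HISAT and the genome is rn6, with no versions or roles, and the counting tool and annotation are not given in the sources used here. One further value column, equal to Llgl1/2 library 2 in all 14636 rows, was not used. A gene was tested where 3 or more libraries reached 1 FPKM (10789 genes). The test was limma 3.58.1 in R 4.3.3, applied to log2(FPKM + 1) values, with a mean-dependent and robust moderation of variances. All 9 libraries were in a single fit with 6 residual degrees of freedom, tests were 2-sided and p-values were adjusted over all genes tested (Benjamini-Hochberg). Fold values are ratios of mean FPKM, and a log2 change of FPKM + 1 understates the change of low genes. The code was tested on simulated data. Relative depth came from the commonest ratio among genes of few reads. The members and lists were chosen with earlier results of these data known. Named genes were all members, the targets and genes from up to 4 per list with the smallest p, not all of which are printed. Each member with a log2 change of at least 0.5 and an adjusted p under 0.05 (limma) against the control also had 2 pattern neighbours named. Some further list genes were named after their values were seen. The labels state no pairing of libraries. Same-numbered Llgl1/2 and Yap libraries deviated together weakly (r across genes of 0.24, 0.12 and 0.12, against -0.135 to 0.009 between other numbers), so the numbers may pair the samples there. The values printed are nevertheless from the fit without the block, and the ratio test permuted all libraries freely; the fit with the block is an alternative. Alternatives are given at the end. Python 3.11.15, pandas 2.3.3 and numpy 2.4.6 were used.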

Additional observations from a re-analysis of the deposited data

How the results depend on the processing

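The numbers of genes called ranged, without each library in turn, from 4 to 6 for Llgl1/2 siRNA, 3 to 5 for Yap siRNA and 4 to 5 for the direct comparison. Across the other alternatives (pseudocount of 0.1, no filter, median-ratio scaling, quantile normalization, only the 6 libraries compared, replicate block) they were 5 to 6, 4 to 6 and 4 to 5. Of the 4 ratios, Hk2 over Hk1, Pfkm over Pfkp and Ldhb over Ldha passed the exact test in every alternative run. Without each library the adjusted p was 0.0071 for Hk2 over Hk1 and Ldhb over Ldha and 0.0095 to 0.019 for Pfkm over Pfkp. For Hk2 over Hk1 and Ldhb over Ldha the exact p of each such run was the smallest possible. The constant value therefore does not measure stability. For Slc2a4 over Slc2a1 the adjusted p without each library was 0.018 to 0.30, the lowest without control library 2. Changes of sign occurred only in differences that did not pass: Slc2a4 after Yap siRNA without control library 2 (-0.078, in a range without each library of -0.078 to 0.224), Hk2 in the direct comparison with median-ratio scaling (-0.049), quantile normalization (-0.088) or without Yap library 1 (range -0.03 to 0.067), and Ldha there with quantile normalization (0.155) or without Llgl1/2 library 3 (range -0.047 to 0.026). With the replicate number as a block the direct comparison again had 5 of 9 calls, and no call there changed. Against the control, same-numbered libraries did not all deviate together (r of 0.01 to 0.12 for Llgl1/2 and 0.04 to 0.17 for Yap siRNA, and libraries numbered 2 correlated better with control library 3). With the block the 3 ratios that passed had an adjusted exact p of 0.037. Within replicate numbers the exact p cannot be below 0.028 before adjustment, so this larger p does not measure weaker differences. Against the control 6 and 5 of 9 passed with the block, Pkm after Yap siRNA being added (limma, adjusted p = 0.049). The causes of these shifts were not tested. Without read counts no counting error can be given; the lowest value of the 9 genes was 7.12 FPKM.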

Other observations

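Of 12 tested regulators of glycolytic genes, 6 rose and 3 fell after Llgl1/2 siRNA (median log2 change 0.25) and 4 rose and 2 fell after Yap siRNA (median 0.04), beside 40.2% and 48.0% of all genes called in either direction. Txnip, which restrains glucose uptake, rose to 214 ± 3.04 FPKM after Llgl1/2 siRNA and 266 ± 11.5 after Yap siRNA, against 152 ± 3.40 in controls (limma, adjusted p = 5.3e-05 and 4.2e-07). Mef2d, a muscle transcription factor gene, rose by 0.36 ± 0.10 (adjusted p = 0.0084) and 0.96 ± 0.10 (adjusted p = 3.3e-06). Epas1, the gene for HIF-2alpha, fell to 29.4 ± 0.230 FPKM after Llgl1/2 siRNA and was at 65.5 ± 1.46 after Yap siRNA, against 65.2 ± 5.22 in controls (adjusted p = 2.2e-07 and 0.93). Endothelium expresses Epas1, and 7 of 8 endothelial markers fell after Llgl1/2 siRNA (median log2 change -1.05), where 18.1% of all genes fell. After Yap siRNA, where Epas1 did not pass, 1 of the 8 rose and 4 fell (median -0.27), beside 20.5% of all genes higher and 27.5% lower. The part of these markers in the Epas1 result was not tested. Myc fell after Llgl1/2 siRNA by 0.72 ± 0.09 (adjusted p = 4.2e-05).

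HIF targets outside glycolysis went both ways: of 9 tested, 2 rose and 4 fell after Llgl1/2 siRNA (median -0.28) and 2 rose and 5 fell after Yap siRNA (median -0.30). For this list and those below, the shares of all genes were 22.1% higher and 18.1% lower after Llgl1/2 siRNA. After Yap siRNA they were 20.5% and 27.5%. Car9 fell to 1.30 ± 0.509 and 1.25 ± 0.241 FPKM, against 4.74 ± 0.836 in controls (limma, adjusted p = 5.8e-05 and 3.3e-05), and Adm, which encodes adrenomedullin, fell by 0.98 ± 0.10 and 0.63 ± 0.10. Vegfa and Bnip3 rose in both, Vegfa by 0.38 ± 0.06 and 0.84 ± 0.06 and Bnip3 by 0.61 ± 0.08 and 0.40 ± 0.08. Of 11 glycogen genes, 4 rose and 1 fell after Llgl1/2 siRNA (median 0.17) and 2 rose and 3 fell after Yap siRNA (median -0.09). The phosphorylase genes Pygm and Pygb rose in both, Pygm to 246 ± 8.29 and 280.1 ± 17.1 FPKM, against 178 ± 21.9 in controls (adjusted p = 0.00078 and 3.5e-05). Pgm2 fell in both (-0.63 ± 0.11 and -0.54 ± 0.11, adjusted p = 0.00071 and 0.0014). Gbe1 rose after Llgl1/2 siRNA by 0.50 ± 0.08 (adjusted p = 0.00025) and was at -0.09 ± 0.08 after Yap siRNA (adjusted p = 0.36). Of 11 genes of GLUT4 trafficking and insulin signalling, 1 rose and 2 fell after Llgl1/2 siRNA (median -0.10) and 3 rose and 3 fell after Yap siRNA (median -0.06). The vesicle SNARE gene Vamp2 rose after Yap siRNA by 0.69 ± 0.08 (adjusted p = 1.5e-05) and was at 0.03 ± 0.08 after Llgl1/2 siRNA (adjusted p = 0.79). Rab10, a GTPase gene of GLUT4 vesicles, fell by 0.36 ± 0.06 and 0.31 ± 0.06 (adjusted p = 0.00058 and 0.0012). Pik3r1 fell after Llgl1/2 siRNA (-0.50 ± 0.11, adjusted p = 0.0027) and rose after Yap siRNA (0.35 ± 0.11, adjusted p = 0.017). Akt2 rose in both, by 0.35 ± 0.09 and 0.24 ± 0.09 (adjusted p = 0.0061 and 0.036).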
